A study of Homo sapiens with 18 samples.

Results

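Wild-type FOXA1 put back into FOXA1-knockdown LNCaP cells was followed on 4 of the 18 arrays of the series. The 4 arrays are those whose titles name the FOXA1 hairpin with wild-type FOXA1 (rescued cells below) and the hairpin with GFP (knockdown cells), and the comparison is rescued minus knockdown. Each side had 2 arrays, 1 from ethanol-treated and 1 from R1881-treated cells, and all 11590 genes detected on at least 2 arrays of the series entered the test. R1881 is a synthetic androgen, used here at 1 nM for 24 hours after 3 days without hormone in 5% charcoal-stripped serum. LNCaP is an established human prostate cancer line of luminal character whose growth depends on androgen. Rescued and knockdown cells both carried the hairpin, and their labels differ in the inserted gene, wild-type FOXA1 or GFP. A pair of control arrays came from cells with the empty hairpin vector pGIPZ and GFP, again 1 per treatment. The series also holds hairpin cells with FOXA1 carrying G87R, L388M, D226N, M253K or F266S, or a form named FENG that the labels do not define. Each construct had 1 array per treatment, and the sources used here do not say whether a line was a clone or a pool, or which promoter drove the insert, so the insert cannot be told apart from differences between lines or cultures.

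FOXA1 is a forkhead transcription factor of luminal prostate and breast epithelium. It is known as a pioneer factor, able to bind its sites in compact chromatin, after which other regulators can reach neighbouring sites. In prostate cells it is known both for supporting luminal genes and for restricting other programmes, and prostate tumours carry recurrent FOXA1 mutations, many of them in the forkhead domain that contacts DNA.

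The array probe for FOXA1 was not higher in rescued cells than in knockdown cells. Its normalized log2 intensity was 10.86 in ethanol and 10.68 with R1881 in rescued cells, 11.16 and 11.07 in knockdown cells, and 11.93 and 11.73 in control cells. The control arrays were the brightest and the rescued arrays the dimmest. The rescued minus knockdown difference was -0.35 ± 0.12 (SE, 2 arrays a side; limma adjusted p = 0.164), and rescued cells lay below control cells by a difference of -1.06 (adjusted p = 0.000918). No source used here says which part of the transcript the probe reads, and the arrays do not show how much FOXA1 the insert supplied. The 8 luminal epithelial markers tested, including the keratins KRT8 and KRT18 and the adhesion genes EPCAM and CDH1, gave a summed normalized intensity of 7318 and 11760 in rescued cells, 6636 and 8562 in knockdown cells, and 8200 and 12280 in control cells, and 0 of the 8 passed. The basal keratins KRT5 and KRT14 and the leukocyte marker PTPRC did not pass the detection filter. Among the 9 constructs, M253K and FENG stood apart in their R1881 minus ethanol difference. The distance of that difference from the mean of all constructs had an SD over genes of 0.525 for M253K and 0.42 for FENG, and of 0.202 to 0.28 for the other constructs, with rescued cells at 0.207 and knockdown cells at 0.252.

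Between rescued and knockdown cells 536 of the 11590 genes differed (4.62%), 235 of them higher in rescued cells (2.03%) and 301 lower (2.60%). Called genes had a limma Benjamini-Hochberg adjusted p under 0.05 and the same sign of the difference under both treatments. The downward side held the larger differences. Among the lower genes the median difference was -1.07 on the log2 scale, 160 differed by at least 1 log2 unit and 36 by at least 2, whereas among the higher genes the median was 0.82, with 74 past 1 unit and 17 past 2. Both rescued arrays lay on the same side of both knockdown arrays for 228 of the 235 higher genes and 286 of the 301 lower genes. The calls come from these same arrays, so this separation is largely set by the call rule. It was not counted over all genes tested. A set of 50 lower genes was undetected on both rescued arrays, and 29 higher genes were undetected on both knockdown arrays. These counts depend on which arrays set the spread. The count of called genes was 1029 (477 higher, 552 lower) when the M253K ethanol, FENG R1881 and G87R ethanol arrays were left out, 257 without the knockdown ethanol array, 276 without the knockdown R1881 array, 211 without the rescued ethanol array and 207 without the rescued R1881 array. In extracts of whole cultures, fewer cells expressing a gene and less RNA of it per cell cannot be told apart.

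The calls required the same direction with and without androgen, and the sizes under both treatments can be set side by side. Counted on single arrays without a test, 112 genes (0.966%) were at least 1 log2 unit higher in rescued cells in ethanol and 102 (0.880%) with R1881. Both counts share 60 genes, 53.6% of the ethanol set and 58.8% of the R1881 set. In the other direction 209 genes (1.80%) were at least 1 unit lower in ethanol and 205 (1.77%) with R1881, with 134 in common, 64.1% and 65.4% of each set. No gene was 1 unit higher under one treatment and 1 unit lower under the other. Among called genes the median difference was 0.85 in ethanol and 0.80 with R1881 for the higher set, and -1.10 and -1.04 for the lower set. The calls were made from these same differences, so the likeness of the medians is largely set by the call rule. When the R1881 response of rescued cells was set against that of knockdown cells, 0 genes passed (limma, median SE of that difference 0.38), and 238 had an unadjusted p under 0.05. The test treats all other constructs as sharing 1 response. Real differences between them, those of M253K and FENG included, therefore count as spread. A count of 0 does not show that the responses of rescued and knockdown cells were equal. Across all genes, which are not independent replicates, the ethanol and R1881 differences had a Pearson correlation of 0.669 and a Spearman correlation of 0.486.

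**Figure D1:**
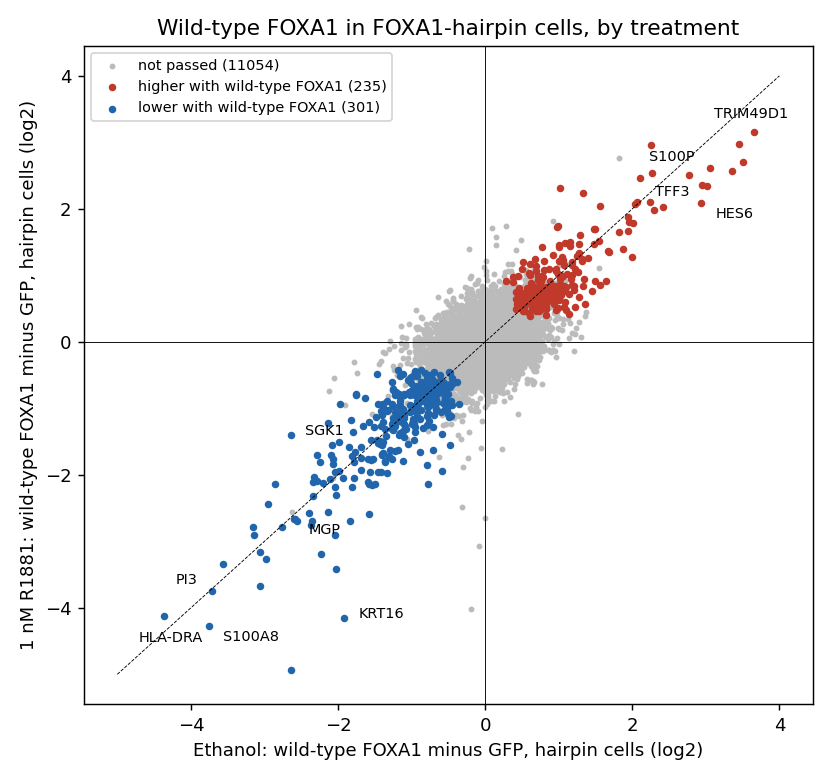
Each point is 1 of the 11590 genes, placed by its rescued minus knockdown difference in ethanol (x axis, log2) and with 1 nM R1881 (y axis, log2), from 1 array against 1 on each axis. The 235 higher (red) and 301 lower (blue) genes lie along the dashed line of equal differences, and genes that did not pass are grey. The call rule itself asks for the same sign on both axes.

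The genes with the largest decrease in rescued cells were genes of antigen presentation, inflammation and squamous or secretory epithelium. HLA-DRA, the alpha chain of the MHC class II molecule HLA-DR, had log2 intensities of 6.28 and 6.33 in rescued cells, against 10.65 and 10.46 in knockdown cells and 4.75 and 5.13 in control cells (ethanol, then R1881, here and below). PI3, the elastase inhibitor elafin, had 7.81 and 7.93 in rescued cells, 11.52 and 11.67 in knockdown cells, and 5.27 and 5.21 in control cells. For both genes the 3 kinds of cells did not overlap, with rescued cells between knockdown and control. S100A8, a calcium-binding subunit of calprotectin, had 4.70 and 5.28 in rescued cells, where 1 of the 2 arrays detected it, and 8.45 and 9.56 in knockdown cells. Its partner S100A9 had 7.12 and 7.33 in rescued cells, 10.10 and 10.60 in knockdown cells, and 5.28 and 5.34 in control cells. All rescued arrays were again below all knockdown arrays. The differences were -4.25 ± 0.20 for HLA-DRA (limma adjusted p = 1.20e-07), -4.015 ± 0.33 for S100A8 (adjusted p = 1.12e-05), -3.73 ± 0.13 for PI3 (adjusted p = 8.21e-09) and -3.12 ± 0.24 for S100A9 (adjusted p = 6.93e-06). The stress keratin KRT16 and its pseudogene KRT16P2 were undetected on the rescued arrays. By the probes used they were at least 6.22-fold and at least 11.2-fold lower. Another kept probe differed by only -1.50 for KRT16 and -1.16 for KRT16P2, so these bounds hold for the probes used. Neither gene passed under every alternative run. Their probes read near-identical transcripts. The list of 15 was completed by the chemokines CCL8 (-3.45) and CCL2 (-2.97), the serpin SERPINB7 (-3.36), the class II invariant chain CD74 (-3.12), the chitinase-like CHI3L2 (-3.02), annexin ANXA1 (-2.78), the acute-phase protein SAA1 (-2.72), the beta-defensin DEFB4A (-2.71) and HLA-DRB4 (-2.70). Another kept SAA1 probe differed by -0.59.

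The genes raised most were a cluster of TRIM genes, S100P, androgen-conjugating enzymes and secretory or luminal genes. S100P, a calcium-binding protein of the family of S100A8, had 9.37 and 9.20 in rescued cells, against 6.31 and 6.58 in knockdown cells and 6.02 and 6.38 in control cells. It was bright in rescued cells and dim in knockdown and control cells, and it averaged 9.46 with G87R and L388M and 9.26 with D226N, M253K and F266S, about the rescued level. Its rescued minus knockdown difference was 2.84 ± 0.19 (limma adjusted p = 1.59e-06). HES6, a HES-family regulator known from neuronal differentiation, had 11.69 and 12.83 in rescued cells, 8.75 and 10.75 in knockdown cells, and 10.31 and 11.59 in control cells. The estrogen-inducible trefoil peptide TFF1 had 6.91 and 6.77 in rescued cells and was undetected on both knockdown arrays, at least 3.86-fold higher, and its neighbour TFF3 had 9.60 and 9.49, against 7.49 and 7.03 in knockdown cells and 9.78 and 9.65 in control cells. Under each treatment the rescued array was above the knockdown array for all 4 genes, and TFF3 in rescued cells lay just below control. The differences of HES6 (2.51 ± 0.19) and TFF3 (2.29 ± 0.18) passed with adjusted p = 4.70e-06 and 7.46e-06. TNFRSF19, a receptor known as a WNT target (2.65 ± 0.21), BCHE, which codes for butyrylcholinesterase (2.40 ± 0.24), SLC45A3, the luminal antigen prostein (2.17 ± 0.22), and MIPEP, a mitochondrial processing peptidase (2.14 ± 0.17), passed too. The top 15 also held UGT2B28, UGT2B11, 4 TRIM genes and GRM5P1, a pseudogene on chromosome 11, all described below.

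**Figure D2:**
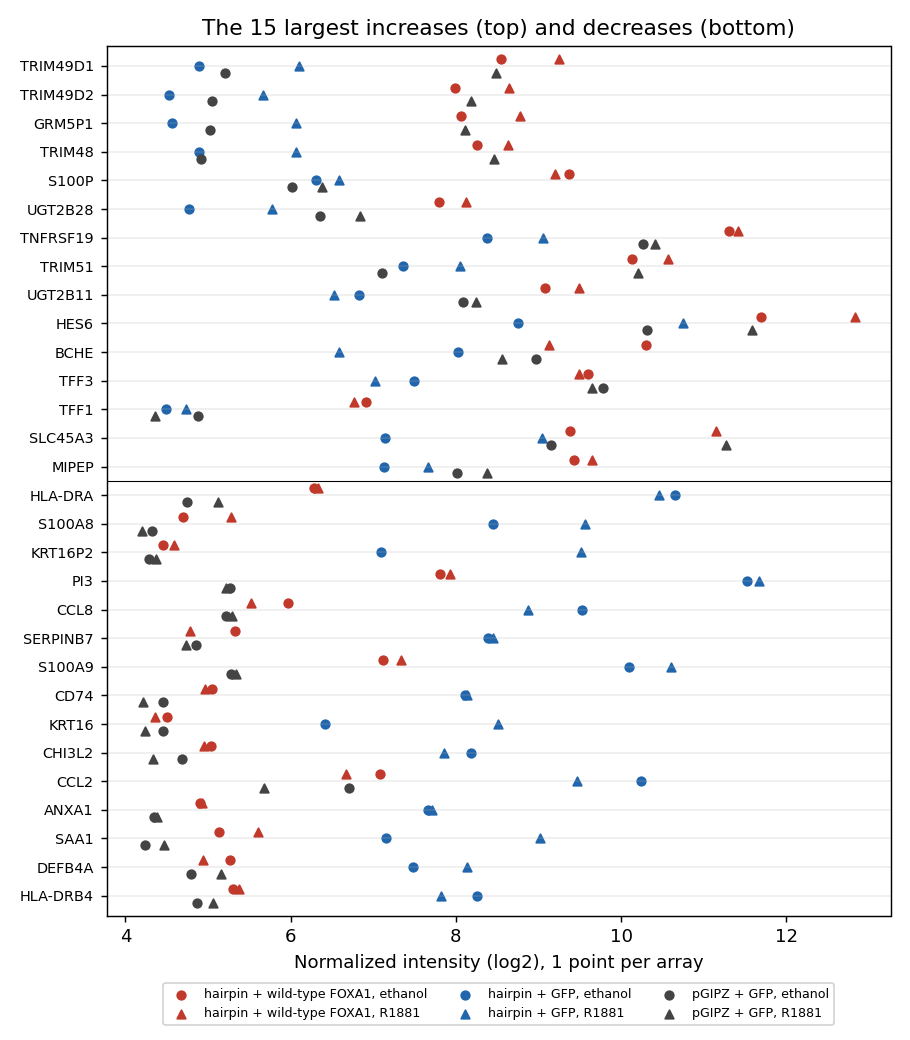
Normalized log2 intensity (x axis, 1 point per array) of the 15 genes with the largest increase and the 15 with the largest decrease, in rescued (red), knockdown (blue) and control cells (dark grey), with circles for ethanol and triangles for R1881. In most of the lower 15 genes the rescued arrays lie close to the control arrays, while PI3, S100A9 and HLA-DRA stay between control and knockdown.

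A family of TRIM genes on chromosome 11 was raised together. TRIM48, TRIM49 and TRIM51 and their copies code for tripartite-motif proteins, a class of RING-domain proteins that includes many ubiquitin ligases, and they are near-identical in sequence, so a probe's signal is uncertain as to the family member. TRIM49D1 had 8.55 and 9.25 in rescued cells, 4.89 and 6.10 in knockdown cells, and 5.20 and 8.48 in control cells. TRIM48 had 8.25 and 8.63 in rescued cells, 4.89 and 6.06 in knockdown cells, and 4.92 and 8.46 in control cells. Both genes were high in rescued cells under both treatments, high in control cells with R1881 only, and low in knockdown cells, where 1 of the 2 arrays detected them. Of the 6 members tested, 5 were higher (TRIM49D1 by 3.40 ± 0.59, TRIM49D2 by 3.21 ± 0.58, TRIM48 by 2.96 ± 0.59, TRIM51 by 2.64 ± 0.53 and TRIM49C by 1.88 ± 0.34, limma adjusted p between 0.00463 and 0.0110), and TRIM49 (0.72 ± 0.28) did not pass (adjusted p = 0.216). Another kept probe for TRIM49C differed by 0.24. The family's median was 2.80, against 0.02 for all genes tested, and 1.30 over the 10 members on the array without the detection filter. Leaving out 1 of the 4 rescued and knockdown arrays left 0 to 3 members called, and TRIM48 and TRIM51 lost their calls without any 1 of them. GRM5P1, also on chromosome 11, moved by 3.10 ± 0.49 (adjusted p = 0.00242), with 8.07 and 8.78 in rescued cells, 4.57 and 6.07 in knockdown cells, and 5.03 and 8.11 in control cells, the same order of arrays as for TRIM48.

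The promoters of 2 of the members that moved, TRIM48 and TRIM49D2, share a run of bases. They are shown as the 250 bases before the RefSeq start on GRCh38.p14, and promoters of other members were not compared. TRIM48 lies at chr11:55261905-55262154 and TRIM49D2 at chr11:89923814-89924063, both on the plus strand, and capitals mark the longest run of bases that the windows share, 79 bases.
TRIM48: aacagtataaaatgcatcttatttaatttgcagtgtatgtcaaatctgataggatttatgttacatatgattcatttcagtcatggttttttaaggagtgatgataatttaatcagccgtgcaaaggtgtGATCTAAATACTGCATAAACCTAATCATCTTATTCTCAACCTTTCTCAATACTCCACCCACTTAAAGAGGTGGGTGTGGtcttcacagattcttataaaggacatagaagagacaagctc
TRIM49D2: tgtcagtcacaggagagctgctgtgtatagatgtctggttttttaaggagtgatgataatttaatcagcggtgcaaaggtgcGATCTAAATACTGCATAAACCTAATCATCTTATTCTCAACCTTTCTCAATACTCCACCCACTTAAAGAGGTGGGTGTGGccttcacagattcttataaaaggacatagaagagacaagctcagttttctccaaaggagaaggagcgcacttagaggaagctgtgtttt
Counted back from the start, the shared run covers positions -120 to -42 in TRIM48 and -168 to -90 in TRIM49D2.

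Chemokines, cytokines and NF-kB feedback genes were lower in rescued cells or did not pass, and none was higher. Chemokines draw leukocytes to tissue, and 7 of the 14 tested were lower (4.62% of all genes passed in either direction), with a list median of -0.69. List medians here cover members that passed the detection filter, which some passed through the knockdown arrays alone. Over all 20 chemokines on the array, without that filter, 6 were lower and the median was -0.28. CXCL8, the neutrophil attractant interleukin-8, had 8.35 and 8.32 in rescued cells, 10.63 and 10.41 in knockdown cells, and 7.56 and 7.29 in control cells. CCL2, a monocyte attractant, had 7.09 and 6.68 in rescued cells, 10.24 and 9.46 in knockdown cells, and 6.71 and 5.68 in control cells. Rescued arrays lay well below knockdown arrays for both genes, with differences of -2.19 ± 0.13 for CXCL8 (limma adjusted p = 7.45e-07) and -2.97 ± 0.16 for CCL2 (adjusted p = 4.27e-07). CXCL2, CXCL11 and CCL7 were undetected in rescued cells and at least 1.67-fold, 1.57-fold and 1.14-fold lower, and CXCL10 differed by -1.01. Of 19 cytokine and acute-phase genes, 7 were lower: SAA1, complement factor B (CFB, -2.33 ± 0.24), the antiprotease SERPINA3 (-1.99 ± 0.38), the death ligand TNFSF10 (-1.92 ± 0.27), the iron-siderophore binder LCN2 (-1.85), SAA4 (at least 1.86-fold) and TNF (-1.20). TNF had 5.25 and 5.08 in rescued cells, against 6.49 and 6.22 in knockdown cells. Of 18 NF-kB regulators and feedback genes, 7 were lower and the median was -0.56. They were the mitochondrial superoxide dismutase SOD2 (-2.17 ± 0.19), the nuclear IkB protein NFKBIZ (-1.997 ± 0.22), the deubiquitinase A20 (TNFAIP3, -1.45 ± 0.27), the kinase IRAK2 (-1.29 ± 0.15), the subunit gene NFKB1 (-1.04), the inhibitor NFKBIA (-0.99) and TNIP1 (-0.68). A second SOD2 probe differed by -0.51. Without 1 of the 4 arrays, 3 to 6 chemokines, 5 to 7 cytokine genes and 4 to 5 NF-kB genes were called lower, and 0 to 2 cytokine genes higher. TNFAIP3 lost its call in 3 of these 4 fits.

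NF-kB acts through kappaB sites, and promoters of 4 of these lower genes are printed, all of which hold letters like such a site. Of the 21 lower genes of the 3 lists, 19 have a promoter entry and 9 hold such letters, and CCL8, CCL7, CFB, TNFSF10, SOD2 and IRAK2 are among those with none. They are the 250 bases before the RefSeq start on GRCh38.p14, with CXCL8 at chr4:73740319-73740568 (plus strand), CXCL2 at chr4:74099196-74099445 (minus strand), TNFAIP3 at chr6:137867009-137867258 (plus strand) and NFKBIZ at chr3:101827740-101827989 (plus strand). Capitals mark GGNNTTTCC on either strand and TATAAA on the gene's strand.
CXCL8: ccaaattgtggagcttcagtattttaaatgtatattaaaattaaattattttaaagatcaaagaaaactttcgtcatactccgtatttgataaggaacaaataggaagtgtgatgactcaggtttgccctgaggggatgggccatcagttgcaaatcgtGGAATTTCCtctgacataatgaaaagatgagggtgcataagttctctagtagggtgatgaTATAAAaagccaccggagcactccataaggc
CXCL2: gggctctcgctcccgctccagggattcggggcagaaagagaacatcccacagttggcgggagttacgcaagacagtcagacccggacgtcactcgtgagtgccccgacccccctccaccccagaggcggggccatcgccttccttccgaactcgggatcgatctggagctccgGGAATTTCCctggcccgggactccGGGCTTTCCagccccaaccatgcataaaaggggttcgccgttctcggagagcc
TNFAIP3: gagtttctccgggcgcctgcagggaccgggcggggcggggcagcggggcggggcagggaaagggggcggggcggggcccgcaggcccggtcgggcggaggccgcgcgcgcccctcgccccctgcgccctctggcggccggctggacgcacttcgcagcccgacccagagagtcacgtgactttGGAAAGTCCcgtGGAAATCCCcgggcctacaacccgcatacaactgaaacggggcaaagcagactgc
NFKBIZ: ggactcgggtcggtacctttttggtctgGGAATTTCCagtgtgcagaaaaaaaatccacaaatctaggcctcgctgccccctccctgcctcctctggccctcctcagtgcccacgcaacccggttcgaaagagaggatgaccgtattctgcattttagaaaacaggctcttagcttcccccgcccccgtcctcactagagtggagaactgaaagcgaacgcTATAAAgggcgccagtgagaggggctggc
Counted from the start, the kappaB-like letters begin at -91 in CXCL8, at -77 and -53 in CXCL2, at -67 and -55 in TNFAIP3 and at -222 in NFKBIZ, and TATAAA begins at -31 in CXCL8 and -29 in NFKBIZ. In windows of the same length, GGNNTTTCC stood in 10% of 240 lower genes, 4.42% of 181 higher genes and 6.1% of 9354 genes tested that have an entry. TATAAA on the gene's strand stood in 14.2%, 5.52% and 3.96% of the same sets. The forkhead core TGTTTAC on either strand stood in 2.5%, 1.1% and 1.89%, and CCAAT on either strand in 34.6%, 33.1% and 35.8%. These are counts of letters, not of bound sites.

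MHC class II genes present peptides to helper T cells. Of 10 members tested, 4 were lower and 0 higher, with a median of -0.54, and over all 19 on the array, without the detection filter, 4 were lower and the median was -0.05. The 4 were HLA-DRA, CD74, HLA-DRB4 and HLA-DPA1. CD74 had 5.05 and 4.97 in rescued cells, 8.11 and 8.13 in knockdown cells, and was undetected on both control arrays. HLA-DPA1 was undetected on both rescued arrays and had 6.53 and 6.32 in knockdown cells, at least 3.02-fold lower. These 4 genes were clearly brighter on both knockdown arrays than on any rescued or control array. HLA-DRB3 (-0.49 ± 0.18) and the peptide loaders HLA-DMA (-0.59 ± 0.23) and HLA-DMB (0.41 ± 0.25) did not pass, nor did the class II transcription factors RFX5 (0.13 ± 0.13), RFXANK (0.15 ± 0.16) and RFXAP (-0.16 ± 0.23). CIITA, the class II master regulator, did not pass the detection filter. HLA-DR probes can read each other's transcripts, and a second HLA-DRB4 probe differed by 0.04, against -2.70 for the one used. A second HLA-DRA probe differed by -2.98. Of 14 class I presentation genes only HLA-E was lower (-0.74 ± 0.18), and that call was lost when any 1 of the 4 arrays was left out. Of 25 interferon-response genes, 6 were lower and 0 higher, led by the GTPase GBP2 with 7.49 and 7.21 in rescued cells, 9.31 and 8.92 in knockdown cells, and 7.58 and 6.98 in control cells (-1.76 ± 0.13, adjusted p = 4.70e-06). CXCL10, CXCL11, GBP1 (-0.84), IRF1 (-0.83) and IFIH1 (-0.71) were the others. In all, 24.0% of the interferon list passed, and 7.14% of the class I list, which is near the 4.62% of all genes. Without 1 of the 4 arrays, 1 to 4 of the 25 were called.

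Leukocyte, endothelial and fibroblast markers were mostly below detection. Of 26, 8 were tested, and the one that passed, the lysosomal protein CD68, was lower (-1.92 ± 0.21), with 7.19 and 7.79 in rescued cells, 9.26 and 9.55 in knockdown cells, and 6.59 and 7.21 in control cells. The summed normalized intensity of the 8 was 379 and 496 in rescued cells, 868 and 1022 in knockdown cells, and 393 and 468 in control cells. The difference lies in CD68, since the other 7 summed to 233 and 275 in rescued cells, 254 and 272 in knockdown cells, and 297 and 320 in control cells, and the list's median was -0.16. A second CD68 probe differed by -0.72. A part of other cell types in the inflammatory and class II differences was not tested.

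Protease inhibitors and S100 proteins of secretory and squamous epithelium were lower as well. Of 15 protease inhibitors, 8 were lower and 1 higher, with a median of -0.90, while over all 24 on the array, without the detection filter, 7 were lower and the median was -0.09. SLPI, the secretory leukocyte protease inhibitor, had 6.49 and 5.88 in rescued cells, 8.53 and 8.79 in knockdown cells, and was undetected in control cells (-2.47 ± 0.24, adjusted p = 3.92e-05). SERPINB7 had 5.33 and 4.78 in rescued cells, where 1 of the 2 arrays detected it, and 8.39 and 8.45 in knockdown cells. Both genes were brighter on each knockdown array than on any rescued or control array. Also lower were neuroserpin (SERPINI1, -1.54), latexin (LXN, -1.52), protease nexin-1 (SERPINE2, -1.27) and TIMP1 (-0.90). The one higher inhibitor was TFPI, the inhibitor of the tissue factor pathway of coagulation, with 12.21 and 12.11 in rescued cells and 11.12 and 10.63 in knockdown cells (1.29, adjusted p = 0.000114). Of 11 S100 genes, S100A8, S100A9, S100A10 (-1.17 ± 0.18) and S100A11 (-0.70) were lower and S100P was higher. Among 15 keratin and cornified-envelope genes, 4 were lower: KRT16, suprabasin (SBSN, at least 2.61-fold), KRT80 (-1.66 ± 0.17) and desmocollin DSC3 (-0.81 ± 0.18). The matrix protease MMP7 (matrilysin) had 9.28 and 9.26 in rescued cells, 11.86 and 11.93 in knockdown cells, and 7.54 and 8.04 in control cells (-2.62 ± 0.17). The membrane-bound protease MMP16 was higher (1.28 ± 0.23). In either direction, 60.0% of the protease inhibitors, 45.5% of the S100 genes, 26.7% of the keratin list and 14.3% of the matrix proteases passed. Over all genes the share was 4.62%.

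Glandular secretory genes moved in both directions. Of 15 tested, 3 were higher and 6 lower (60.0%, against 4.62% of all genes). MGP, the matrix Gla protein, had 8.76 and 8.38 in rescued cells, 11.35 and 11.05 in knockdown cells, and was undetected on both control arrays (-2.63 ± 0.38, adjusted p = 0.00121). PIP, the prolactin-inducible protein, had 6.75 and 6.86 in rescued cells, 9.10 and 9.56 in knockdown cells, and was also undetected in control cells (-2.52 ± 0.19, adjusted p = 6.93e-06). Rescued cells thus lay between the other cells for both genes, nearer to knockdown than to control for MGP. The polymeric immunoglobulin receptor PIGR (-2.18), the secretoglobin SCGB2A1 (at least 2.90-fold), FCGBP (-1.69) and ZG16B (-1.17) were the other lower members, and TFF3, TFF1 and the prostate secretory protein MSMB (0.96 ± 0.23) were the higher ones. For MSMB, 1 of the knockdown arrays detected it, and the call was lost in 3 of the 4 fits without a rescued or knockdown array.

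Prostate luminal genes rose or did not pass, with 6 of 26 higher and 0 lower and a median of 0.27. SLC45A3 had 9.38 and 11.15 in rescued cells, 7.15 and 9.05 in knockdown cells, and 9.15 and 11.27 in control cells. The prostate olfactory receptor OR51E1 had 7.19 and 6.83 in rescued cells, 5.52 and 5.47 in knockdown cells, and 8.42 and 7.86 in control cells. NAALAD2, a homologue of prostate-specific membrane antigen, had 8.16 and 7.01 in rescued cells, 6.10 and 4.90 in knockdown cells, and 6.56 and 5.76 in control cells. Rescued cells were at the control level for SLC45A3, below it for OR51E1 and above it for NAALAD2. MSMB, prostatic acid phosphatase ACP3 (0.71) and OR51E2 (0.69) completed the 6, which are 23.1% of those tested (4.62% over all genes). Without 1 of the 4 arrays, 3 to 5 of them were called.

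Of 47 genes that androgen is known to induce in prostate cells, 4 passed (8.51%, against 4.62% of all genes). Of these, SLC45A3 and the glucocorticoid-induced leucine zipper gene TSC22D3 (0.77 ± 0.18) were higher and the kinase SGK1 and the zinc-finger factor ZBTB16 (-0.80 ± 0.18) were lower. SLC45A3 alone among them passed under every alternative run. TSC22D3 ranged there from 0.62 to 0.96, SGK1 from -2.42 to -1.62 and ZBTB16 from -1.09 to -0.52. The R1881 minus ethanol difference of TSC22D3, given with no test, was -0.11 in rescued, 0.09 in knockdown and -0.53 in control cells. SGK1 had 6.65 and 9.52 in rescued cells, 9.29 and 10.92 in knockdown cells, and 5.63 and 8.76 in control cells, so that it was brighter with R1881 in all 3 kinds of cells and brightest in knockdown cells under each treatment (-2.02 ± 0.42, adjusted p = 0.0140). KLK3, which codes for prostate-specific antigen, had 6.75 and 8.60 in rescued cells, 6.52 and 8.17 in knockdown cells, and 7.08 and 8.66 in control cells (0.33 ± 0.21, adjusted p = 0.525). The differences of KLK2 (-0.21 ± 0.31), TMPRSS2 (0.74 ± 0.27), the co-chaperone FKBP5 (-0.17 ± 0.22) and the homeobox factor HOXB13 (-0.15 ± 0.18) did not pass either. A difference that misses the threshold on 2 arrays a side does not show that the levels were equal.

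Androgen-repressed genes and enzymes of steroid metabolism, lists that share the UGT2B genes, had calls in both directions. Of 30 genes known as androgen-repressed, 6 were higher (UGT2B28, UGT2B11, BCHE, DDC, PEG3 and UGT2B10) and 3 lower (TGFBR3, LRRN1 and CCN3), of which 4 to 5 and 1 were called without 1 of the 4 arrays. UGT2B28, which glucuronidates androgens for excretion, had 7.79 and 8.12 in rescued cells, 4.77 and 5.78 in knockdown cells, and 6.36 and 6.85 in control cells (2.68 ± 0.24, adjusted p = 2.53e-05). UGT2B11 had 9.08 and 9.49 in rescued cells, 6.83 and 6.53 in knockdown cells, and 8.08 and 8.24 in control cells. Both were brightest in rescued cells. With R1881 they were not dimmer, as the name of the list would have it, except for UGT2B11 in knockdown cells. The R1881 minus ethanol difference of UGT2B28, given with no test, was 0.33 in rescued, 1.00 in knockdown and 0.49 in control cells, and that of UGT2B11 was 0.41, -0.30 and 0.16. DDC, which decarboxylates L-DOPA, had 10.99 and 9.95 in rescued cells and 9.42 and 7.90 in knockdown cells (1.81 ± 0.19). The reductases AKR1C2 and AKR1C3, which act on steroids and prostaglandins, went the other way. AKR1C2 had 7.25 and 6.57 in rescued cells, 9.80 and 9.27 in knockdown cells, and 7.04 and 6.35 in control cells (-2.63 ± 0.17, adjusted p = 1.56e-06), and AKR1C3 differed by -1.75 ± 0.18. Of the 27 steroid and drug metabolism genes tested, the others that passed were UGT2B10 (1.64) and HSD17B14 (at least 1.33-fold), higher, and AKR1B10 (at least 1.75-fold), lower. UGT2B and AKR1C genes are near-identical within each family, and their probes are uncertain as to the member.

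Of 19 genes of the TGF-beta and BMP pathway, 6 were lower and 1 higher (4.62% of all genes passed in either direction), with a median of -0.28. Over all 31 on the array, without the detection filter, 6 were lower, 0 were higher and the median was -0.10. The ligand gene TGFB3 was undetected on both rescued arrays and had 5.90 and 7.22 in knockdown cells, at least 3.32-fold lower, and the BMP target ID1 was at least 1.84-fold lower. The matricellular gene CCN1 (-1.46 ± 0.26), the co-receptor TGFBR3 (-1.23 ± 0.15), THBS1 (-1.20) and ID2 (-0.81) were lower too, and LTBP2 was higher (0.65). Without 1 of the 4 arrays, 3 to 5 were called lower and 0 higher. Among 11 mesenchymal genes, smooth-muscle actin ACTA2 was lower, with 8.09 and 8.01 in rescued cells, 10.49 and 10.59 in knockdown cells, and 7.53 and 7.19 in control cells (-2.49 ± 0.15, adjusted p = 6.56e-07), while vimentin (VIM, 0.91 ± 0.21) was higher, a call lost without any 1 of the 4 rescued and knockdown arrays. The laminin chain LAMB3, a basal epithelial marker, was lower (-2.26 ± 0.24), with 1 of the 2 rescued arrays detecting it, and so was the junction protein CXADR (-1.13 ± 0.14), the pair making up the calls among 27 adhesion and junction genes. The cell cycle inhibitor CDKN2B (-2.35 ± 0.29) was the one lower gene of 24 p53 and growth arrest genes, and 0 were higher. The remaining 4 basal markers tested did not pass. Shares passing were 7.41% for adhesion and junctions and 4.17% for p53 and growth arrest, near that of all genes. For mesenchymal genes the share was 18.2%.

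Of 25 FOX family and lineage factors, 6 passed (24.0%, against 4.62% of all genes), and 5 of them were lower (KLF4 by -1.44 ± 0.32, the corepressor TLE1 by -0.99 ± 0.23, CEBPD by -0.91 ± 0.21, ZBTB16, and CEBPB by -0.75 ± 0.13) and 1 higher, the corepressor TLE3, undetected in knockdown cells and at least 1.70-fold higher. Without 1 of the 4 arrays, 0 to 2 of the lower and 0 of the higher calls held. The forkhead genes FOXO3 (-0.43 ± 0.17), FOXP1 (0.32 ± 0.24), FOXO1 (-0.19 ± 0.17) and FOXM1 (0.04 ± 0.23) did not pass, and neither did the partners GATA2 (0.30 ± 0.19), SPDEF (0.60 ± 0.25), GRHL2 (-0.27 ± 0.30), GRHL1 (-0.07 ± 0.19), SOX9 (-0.26 ± 0.39), SOX4 (0.23 ± 0.15), TFAP2A (-0.07 ± 0.18) and TFAP2C (-0.15 ± 0.15). The same held for PIAS1 (-0.58 ± 0.24), ELF5 (0.40 ± 0.21), ELF3 (-0.04 ± 0.17) and EHF (-0.26 ± 0.68), and KLF5 was undetected on all 6 arrays. Of 18 nuclear receptors 1 passed, the adipogenic receptor PPARG, with 6.43 and 6.56 in rescued cells, 5.24 and 5.35 in knockdown cells, and 6.73 and 6.63 in control cells (1.20 ± 0.15, adjusted p = 0.000387). In the Notch list, HES6 and HES2 (at least 1.93-fold) were higher and HEY1 (-0.62 ± 0.15) lower of 14, and in the WNT list TNFRSF19 and the antagonist NKD2 (1.21 ± 0.16) were higher and the ligand WNT11 (at least 2.06-fold) lower of 19. A second TNFRSF19 probe differed by 0.82. Of 8 neuroendocrine and neuronal genes tested, HES6 alone passed. The nuclear receptor share of 5.56% is near that of all genes. Shares were 21.4% for the Notch list, 15.8% for the WNT list and 12.5% for the neuroendocrine list.

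Secreted and receptor genes outside these groups were mixed. Among growth factor genes 16.0% passed and among G protein signalling genes 20.7%, against 4.62% of all genes. Of 25 growth factor genes, relaxin RLN1 (1.78 ± 0.24) and adrenomedullin ADM (1.11 ± 0.16) were higher, and IGFBP3 (-1.47 ± 0.16) and endothelin EDN1 (at least 1.38-fold) were lower. IGFBP3 had 9.03 and 8.47 in rescued cells, 10.43 and 10.01 in knockdown cells, and 6.89 and 6.75 in control cells. Of 29 G protein signalling genes, 3 were higher (OR51E1, OR51E2 and LPAR3, 0.65) and 3 lower. RGS4, which shortens G protein signals, had 6.78 and 7.90 in rescued cells, 9.13 and 10.01 in knockdown cells, and was undetected in control cells (-2.23 ± 0.25). S1PR3, a sphingosine-1-phosphate receptor, had 9.14 and 8.38 in rescued cells, 10.50 and 10.17 in knockdown cells, and 5.74 and 5.69 in control cells (-1.58 ± 0.24). Both means in rescued cells lay nearer to knockdown than to control. Cyclooxygenase-2 (PTGS2) differed by -1.30 ± 0.26.

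Cell cycle genes lay mostly above 0 by small amounts. Over all genes tested, 6232 of 11590 had a difference above 0, and genes of a list are not independent replicates. In the S phase list 27 of 28 genes had a difference above 0 and the median was 0.30, yet 0 passed, with the largest at 0.53 (UHRF1). In the G2 and mitosis list 33 of 36 lay above 0, with the kinase AURKB higher (0.73 ± 0.18) and CKS2 lower (-0.64 ± 0.15). The 15 housekeeping genes had a median of 0.01 with 0 passing. Of 34 hypoxia and glycolysis genes, 4 were higher and 29 lay above 0, with a median of 0.40. COXFA4L2, a mitochondrial protein known as NDUFA4L2 in older annotation, had 9.76 and 9.85 in rescued cells, 7.76 and 8.06 in knockdown cells, and 10.04 and 10.60 in control cells (1.90 ± 0.32, adjusted p = 0.00364). ADM and the glycolysis regulators PFKFB4 (0.94 ± 0.17) and PFKFB3 (0.79 ± 0.16) were the others. Of 28 lipid and cholesterol synthesis genes, the desaturase SCD (0.90 ± 0.15) and acetyl-CoA carboxylase ACACA (0.59 ± 0.15) were higher. Of 33 ATF4 and unfolded protein response genes, ATF5 (-1.17 ± 0.22) and CEBPB were lower. Shares passing were 5.56% in the G2 and mitosis list, 7.14% in the lipid list and 6.06% in the ATF4 list. These lie near the 4.62% of all genes. For hypoxia and glycolysis the share was 11.8%. The polyamine list had arginase ARG2 (1.30 ± 0.19) and PAOX (0.62 ± 0.15) higher and the antizyme OAZ3 (-1.07 ± 0.14) lower of 13 (23.1%), and a second PAOX probe differed by -0.08. AURKB, CKS2, PFKFB3, ACACA, ATF5 and PAOX did not pass under every alternative run. Over the alternatives, AURKB ranged from 0.46 to 1.02, CKS2 from -0.85 to -0.43, ACACA from 0.48 to 0.79 and PAOX from 0.27 to 0.79. When each array was scaled to a common median in place of quantile normalization, the median over all genes was 0.17 instead of 0.02, and the S phase median was then 0.46.

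**Figure D3:**
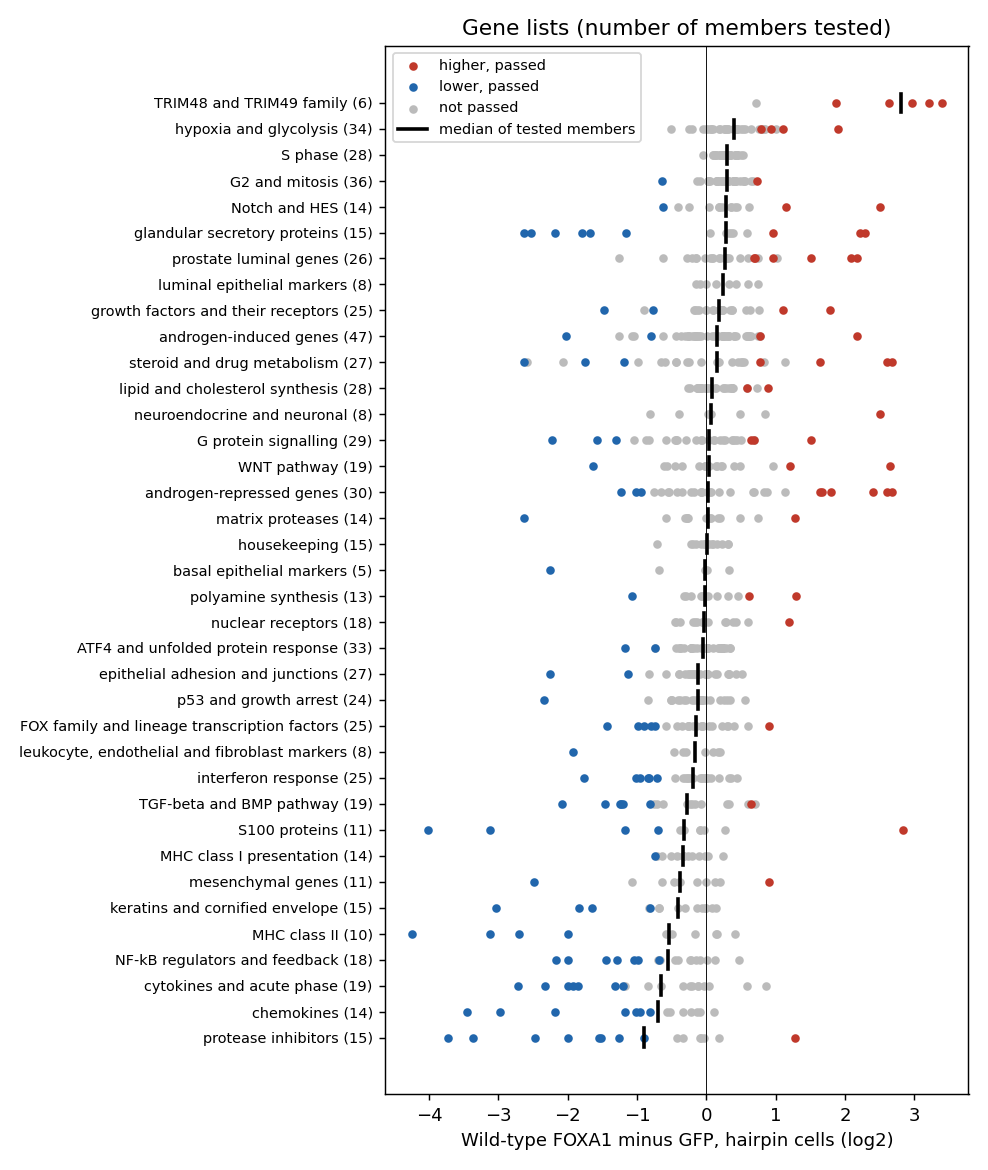
Rescued minus knockdown difference (x axis, log2) of every tested member of the 37 gene lists, ordered by the list's median (black bar). Members that passed are red when higher and blue when lower, and grey members did not pass. The TRIM family has a median of 2.80, and protease inhibitors, chemokines and cytokines have medians of -0.90, -0.69 and -0.65. Over all members on the array, without the detection filter, these medians were 1.30, -0.09, -0.28 and -0.17.

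Rescued cells were also set against control cells, to ask how near their levels came to those of cells without the hairpin. In knockdown cells 962 genes (8.30%) differed from control, 528 higher (4.56%) and 434 lower (3.74%), and the FOXA1 probe was lower by a difference of -0.71 (limma adjusted p = 0.00287). In rescued cells 85 genes (0.733%) differed from control, 68 higher (0.587%) and 17 lower (0.147%). These comparisons share arrays with the rescue, so values are given side by side and no overlap is drawn. Without the rescued ethanol array 30 genes differed from control, and without the rescued R1881 array 33 did. Among genes lower in rescued than in knockdown cells, rescued cells remained above control for MGP (at least 13.3-fold, limma adjusted p = 0.000214), RGS4 (at least 5.66-fold, adjusted p = 4.48e-05), PIP (at least 3.90-fold) and SLPI (at least 2.54-fold), which were undetected in control cells. They also remained above control for S1PR3 (3.04, adjusted p = 4.33e-05), PI3 (2.62 ± 0.13, adjusted p = 6.30e-07), IGFBP3 (1.93), S100A9 (1.92), MMP7 (1.48), LCN2 (1.47), THBS1 (1.47), FCGBP (0.76), HLA-DRA (1.37 ± 0.20, adjusted p = 0.00474) and CXCL8 (0.91). For CCL2 (0.69), CCL8 (0.50), ACTA2 (0.69), GBP2 (0.07), SOD2 (-0.14) and AKR1C2 (0.21) the difference from control did not pass. Among genes higher in rescued than in knockdown cells, S100P (3.08 ± 0.19, limma adjusted p = 3.77e-06), TFF1 (2.22), NAALAD2 (1.43), UGT2B28 (1.36), MIPEP (1.34), HES6 (1.31) and TNFRSF19 (1.04) exceeded control, while OR51E1 (-1.13), ACP3 (-1.07) and OR51E2 (-0.70) stayed below it. TFF3 (-0.17), SLC45A3 (0.06), PPARG (-0.19) and SCD (0.00) had differences from control that did not pass. For the TRIM genes the difference from control had wide errors, such as 2.06 ± 0.59 for TRIM49D1, and did not pass.

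**Figure D4:**
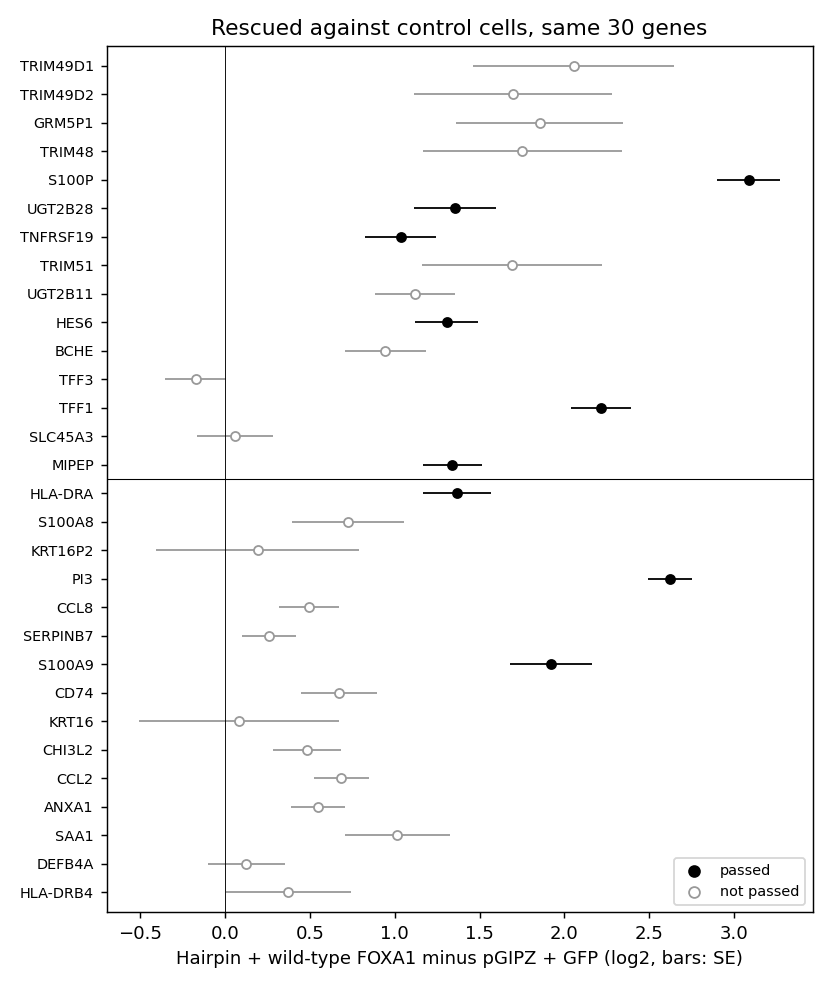
Rescued minus control difference (x axis, log2, bars show the SE of the fit) for the 15 genes with the largest increase (top) and the 15 with the largest decrease (bottom) in rescued against knockdown cells. Filled points passed and open points did not, and for genes undetected in control cells the point is measured against a background-level probe. PI3 at 2.62 and S100P at 3.08 lie farthest to the right among those that passed.

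The same genes were then examined on 10 arrays whose levels do not enter the rescued minus knockdown difference. These arrays do enter its estimate of spread, so calls in both comparisons are not independent. Hairpin cells with FOXA1 changed outside the forkhead (G87R and L388M, 4 arrays) were compared with hairpin cells with FOXA1 changed inside it (D226N, M253K and F266S, 6 arrays). This comparison called 1473 genes (12.7%), 640 higher (5.52%) and 833 lower (7.19%). Of the 301 genes lower in rescued cells, 213 were lower with G87R and L388M as well, 3 were higher, and 282 had a difference below 0. Of the 235 raised genes, 131 were higher, 12 were lower, and 193 had a difference above 0. The median difference was -0.63 over the lowered and 0.40 over the raised genes, against 0.01 over all genes, of which 53.1% lay above 0. The 344 genes called in the same direction made up 64.2% of the rescue's genes and 23.4% of those called on these arrays. All 18 arrays share 1 fit and 1 estimate of the spread, and leaving out the M253K ethanol, FENG R1881 and G87R ethanol arrays gave 562 genes in the same direction, while leaving out 1 of the rescued and knockdown arrays gave 145 to 176. PI3 differed by -2.68 on these arrays, HLA-DRA by -2.57, CXCL8 by -2.48, SERPINB7 by -2.98, AKR1C2 by -3.30 and SOD2 by -2.22, all of which passed. Among raised genes, COXFA4L2 (2.37), NAALAD2 (2.19), TFF1 (1.80), TRIM48 (1.53) and HES6 (1.22) passed, while S100P (0.21) and DDC (0.31) did not.

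A set of 15 genes passed in opposite directions. Their number was 4 without the rescued R1881 array, 5 without the rescued ethanol or the knockdown ethanol array, 9 without the knockdown R1881 array, 8 to 24 without 1 of the 10 other arrays, 7 with median scaling and 27 without the M253K ethanol, FENG R1881 and G87R ethanol arrays. UGT2B28, UGT2B11 and UGT2B10 were higher in rescued than in knockdown cells, but on the other arrays they were lower with G87R and L388M than with D226N, M253K and F266S. The means there were 8.22 and 10.76 for UGT2B28 (-2.54 ± 0.16, limma adjusted p = 3.35e-07), 9.66 and 11.95 for UGT2B11 (-2.29 ± 0.15) and 7.10 and 9.38 for UGT2B10 (-2.27 ± 0.25). For UGT2B28 and UGT2B11 the mean of the forkhead mutants was above every rescued, knockdown and control array. ADM (1.11 with wild-type FOXA1, -0.90 on the other arrays) did the same. The other 11 were chosen here after their values were seen: RDH10, a retinol dehydrogenase (1.81 and -1.81), PRUNE2, ANKRD16, TRAF5, PAG1, LPAR3, MGAT4A and APLN, higher in rescued cells, and PLA2G2A, STPG1 and RIPOR2, lower in rescued cells. RDH10 had 8.11 and 7.59 in rescued cells and 6.16 and 5.93 in knockdown cells, against means of 8.01 with G87R and L388M and 9.82 with D226N, M253K and F266S.

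**Figure D5:**
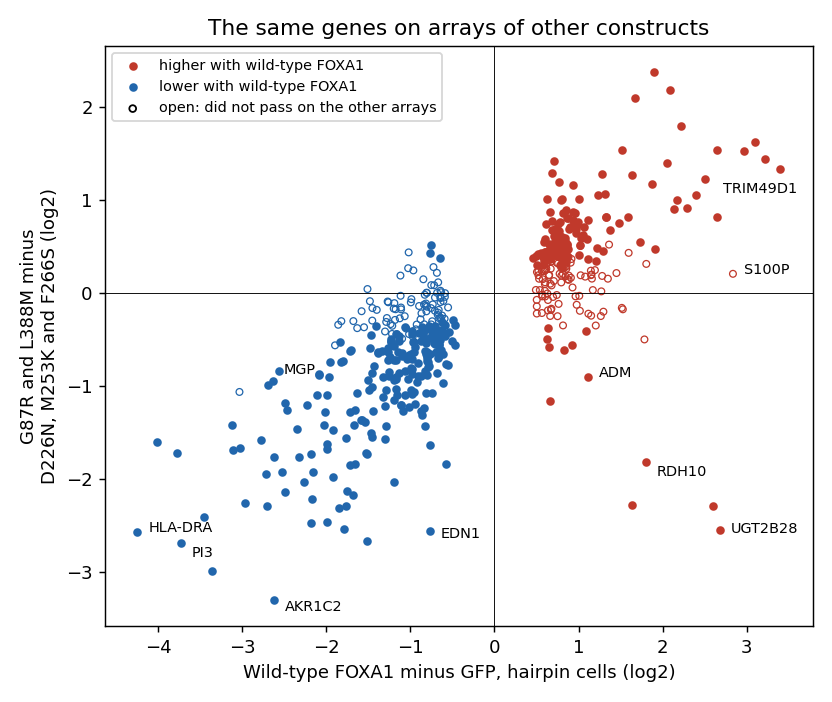
The 536 called genes, placed by their rescued minus knockdown difference (x axis, log2) and by the difference between G87R or L388M and D226N, M253K or F266S on 10 other arrays (y axis, log2). Filled points passed on those arrays too and open points did not. Most points lie at the lower left and upper right, and UGT2B28 and RDH10 lie at the lower right.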

How the data were processed

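Total RNA of LNCaP cells from each construct and treatment was read on 1 Illumina HumanHT-12 V4 array. The authors deposited a table that holds, per the file headers, the raw intensity of 47303 probes with their detection p-value, and a second table of processed intensity (lowest -15.4, median 5.2), for which no source used here states the steps. The submitters' processing notes name GenomeStudio. Raw intensity was not background subtracted (lowest value 68.4). Mean raw signal was 233.1 to 303.9 per array, and 15855 to 17278 probes were detected. Precision is limited by how few arrays there are.

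The raw intensity was background-corrected and quantile-normalized with limma's neqc (limma 3.58.1, R 4.3.3, offset 16) and taken to log2. Probes with 1 gene and a detection p-value under 0.01 on at least 2 arrays were kept, and the probe with the highest mean stood for a gene. By the platform annotation, 30102 probes named 1 gene, 8 several and 17193 none, and 99.87% of the named probes matched the GRCh38.p14 gene table. An additive limma fit over 18 arrays, with construct and treatment as terms, left 8 residual degrees of freedom, and Benjamini-Hochberg adjusted p-values were taken over 11590 genes. The difference in R1881 response used 6 residual degrees of freedom. P-values measure only the residual spread of this fit between these arrays. With 1 array per construct and treatment, that spread mixes differences in R1881 response between constructs with technical spread. No condition had a replicate from which to tell them apart. A gene undetected on both arrays of a group has a bound ("at least"), from the higher of its own value and the lowest detected value on each array.

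Members and the 37 gene lists (987 symbols, 664 tested) were chosen with earlier results of these data known. Named genes were the 15 largest increases and decreases, up to 4 called members per list by size (others with the difference alone), FOXA1, KLK3, KLK2, TMPRSS2, FKBP5 and HOXB13 (some other genes of this rule are not reported here), any gene passing the response difference (0 passed), and the detected MHC class II, TRIM48 and TRIM49, and FOX family members. Among 34 called and named genes with more than 1 kept probe, HLA-DRB4 and PAOX had a probe of opposite sign, and in 9 another probe lay more than 1 log2 unit from the one used. Promoters came from RefSeq (76 of 102 called and named genes had an entry). On simulated data for the rescued minus knockdown comparison, 58.2% of 67 genes changed by 1 log2 unit and 97% of 66 changed by 2 were recovered among 11590 genes, with 8 false calls. The simulation gave each gene independent noise of the same spread on every array. In the data M253K and FENG stood apart, so these figures may not hold for the arrays themselves. Alternatives were median scaling, no filter or detection on all 18 arrays, the authors' processed table, the mean of probes, offset 50, an intensity trend, other sets of arrays and leaving out single arrays. Columns of other samples numbered 0.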

Additional observations from a re-analysis of the deposited data

How the results depend on the processing

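No call of a named gene changed direction under any alternative run, and 61 of the 102 called and named genes passed under every alternative in which they could be tested. Of the 102, 85 passed with median scaling, 93 with the authors' processed table, 94 without the arrays of D226N, M253K and F266S, and 67 to 82 when 1 rescued or knockdown array was left out, with 67 without the rescued ethanol array and 71 without the rescued R1881 array. AURKB, CXCL10, TLE1, HLA-E, TSC22D3 and ZBTB16 were among those lost.

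With median scaling, 326 genes were called in the rescued minus knockdown comparison (175 higher, 151 lower), 533 in knockdown minus control, 766 on the other arrays and 184 in the same direction in both. Fitted on the 4 rescued and knockdown arrays alone, with 1 residual degree of freedom, the count was 900. Without the M253K ethanol, FENG R1881 and G87R ethanol arrays it was 1029, with 1800 for knockdown minus control, 158 for rescued minus control and 562 in the same direction on the other arrays. With detection required on all 18 arrays, rescued minus control gave 52 genes. Leaving out single arrays gave 207 to 276 genes for rescued minus knockdown, 459 to 818 for knockdown minus control, 30 to 74 for rescued minus control, 845 (without L388M with R1881) to 2117 (without M253K in ethanol) for the other arrays (874 to 957 without either G87R array or the L388M ethanol array) and 145 to 469 in the same direction. The difference in R1881 response gave 3 genes with the authors' processed table, NXPE4, CD302 and CHRFAM7A, and 0 under the other settings run. The causes were not tested.

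Arrays were paired by treatment through the treatment term of each fit, the fit of 4 arrays alone included. No paired analysis by replicate number was possible because the labels give none. With 1 array per condition, changes near 0.5 log2 units were mostly out of reach in simulated data with the same spread on every array. There 10.4% of 67 such genes were recovered.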

Other observations

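A few genes differed under R1881 only, and none of these differences passed. They are named because of the values seen here. The hair keratin-associated gene KRTAP13-2 had 4.22 in ethanol and 4.54 with R1881 in rescued cells, against 4.42 and 8.56 in knockdown cells and 4.20 and 4.30 in control cells. KRTAP13-1 had 4.27 and 4.31 in rescued cells, and 4.27 and 6.96 in knockdown cells. The epidermal keratin KRT6C had 4.27 and 4.33 in rescued cells, and 4.35 and 7.40 in knockdown cells. In all 3 genes the R1881-treated knockdown array alone was bright among these 4 arrays. CAMP, which codes for the antimicrobial peptide cathelicidin, had 4.17 and 4.18 in rescued cells and 4.48 and 6.66 in knockdown cells. The difference in R1881 response between rescued and knockdown cells had a limma adjusted p = 1 for each of the 4 genes, and each rests on 1 array.

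TARP, a transcript of the T cell receptor gamma locus that prostate cells make, was brighter in rescued cells, with 6.48 and 8.44, against 4.66 and 5.67 in knockdown cells and 5.55 and 8.62 in control cells, and its difference of 2.29 did not pass (limma adjusted p = 0.0872). UGT1A6, a glucuronidating enzyme, had 6.06 and 5.13 in rescued cells, 8.69 and 7.69 in knockdown cells, and 4.60 and 4.42 in control cells, and its difference of -2.59 did not pass (adjusted p = 0.212).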
